A study of Arabidopsis thaliana with 12 samples.

Results

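The 2 reciprocal hybrids of the Arabidopsis thaliana accessions Col and C24 were compared with each other, through the 3 libraries labelled C24/Col and the 3 labelled Col/C24, which are 6 of the 12 libraries of the study. The other 6 are 3 of Col and 3 of C24, and served as the parental reference and to estimate the spread between libraries. All plants were wild type, and shoots were taken from seedlings 14 days old that had grown with 8 h of light at 22 °C and 16 h of darkness at 18 °C. The labels do not say which parent was the mother of which hybrid, so the hybrids are named only as labelled. Oligo(dT)-selected RNA was sequenced, and the deposited value of a gene is its RPKM, its reads scaled by the length of the gene and by the mapped reads of the library. Differences are given as C24/Col minus Col/C24 on the scale log2(RPKM + 1), with the standard error (SE) of the fitted difference. A gene was tested if it reached 1 RPKM in at least 3 libraries, which left 17927 genes of 32992, among them 76 plastid and 19 mitochondrial genes.

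Reciprocal F1 plants receive the same pair of nuclear genomes, while the plastids and mitochondria of Arabidopsis come from the mother. Their comparison therefore addresses effects of the direction of the cross, such as those of the organelle genomes, of the seed parent and of imprinting, the expression of a gene from 1 parental copy according to its parent of origin. Imprinting in Arabidopsis is known mainly from the endosperm, the nourishing tissue of the seed. Ribosomal RNA and most organelle transcripts carry no stable poly(A) tail, and are thus depleted by oligo(dT) selection.

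The depth behind the values, estimated from the spacing of low values, was 15.72 to 27.1 M reads per library. A gene of 1500 bp with 3 reads would then be listed at 0.0737 to 0.127 RPKM, counting error alone being considered. By Pearson's r across genes, libraries with the same replicate number resembled each other more than libraries of the same hybrid did. It was 0.991 to 0.993 for the former and 0.968 to 0.985 for the latter. The median absolute log2 difference was 0.102 to 0.143 for the former and 0.139 to 0.191 for the latter, so these ranges overlapped. Over the 6 hybrid libraries the replicate number held 76.0% of the variance of all genes tested, the direction of the cross 12.7% and the rest 11.3%. Shoot markers such as RBCS1A, the small subunit of Rubisco, were abundant, at 10299.5 to 14207 RPKM in the 6 libraries, while CAB1 (LHCB1.3) was listed at 0 in every library. Of 5 root markers only PYK10 reached 1 RPKM, and 3 were at 0 in all 6 libraries. PYK10 was not near the floor, at 93.9 to 100.35 RPKM in Col/C24 and 91.2 to 103.4 in C24/Col. Of 5 seed markers 4 reached 1 RPKM in at least 1 hybrid library. The seed markers summed to 0.22 to 53.8 RPKM in Col/C24 and 0.15 to 140.7 in C24/Col. Of 4 flower markers only SEP3 reached 1 RPKM.

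No gene passed between the reciprocal hybrids, 0 of 17927 (0%) by limma at an adjusted p under 0.05. The smallest adjusted p was 0.0916, that of U3B. At an unadjusted p under 0.05 there were 2377 genes (13.3%), of which 2220 were higher (12.4% of the genes tested) and 157 lower (0.876%) in C24/Col. In the same model 7490 genes (41.8%) passed between the parents, and the median absolute difference was 0.19 between the parents and 0.10 between the hybrids. The 2 counts were not tested against each other. The 6 libraries did not overlap for 1738 genes that were higher in C24/Col (9.69%) and for 126 that were lower (0.703%). This imbalance went with a shift of the whole table, since the median difference of all genes was 0.08 and 14576 genes (81.3%) lay above 0. With median-of-ratios scaling, which sets the libraries to a common median gene, the median was 0.003, 9227 genes (51.5%) lay above 0, and 427 genes were higher (2.38%) and 547 lower (3.05%) without overlap.

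The intervals put a bound on what the data could have missed. The 95% interval of the difference lay within 2-fold in either direction for 17681 genes (98.6%), and within 1.5-fold for 16979 (94.7%). Both are on the log2(RPKM + 1) scale, which compresses the differences of low genes. Without the replicate number in the model 16977 genes had an interval within 2-fold. The middle 95% of the fitted differences ran from -0.16 to 0.32, and the median SE was 0.09. Differences of at least 1 were fitted for 69 genes, 25 higher and 44 lower in C24/Col. Of the 44 lower genes 28 were plastid, 4 mitochondrial and 12 nuclear. Between the parents 1099 genes differed by at least 1.

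**Figure D1:**
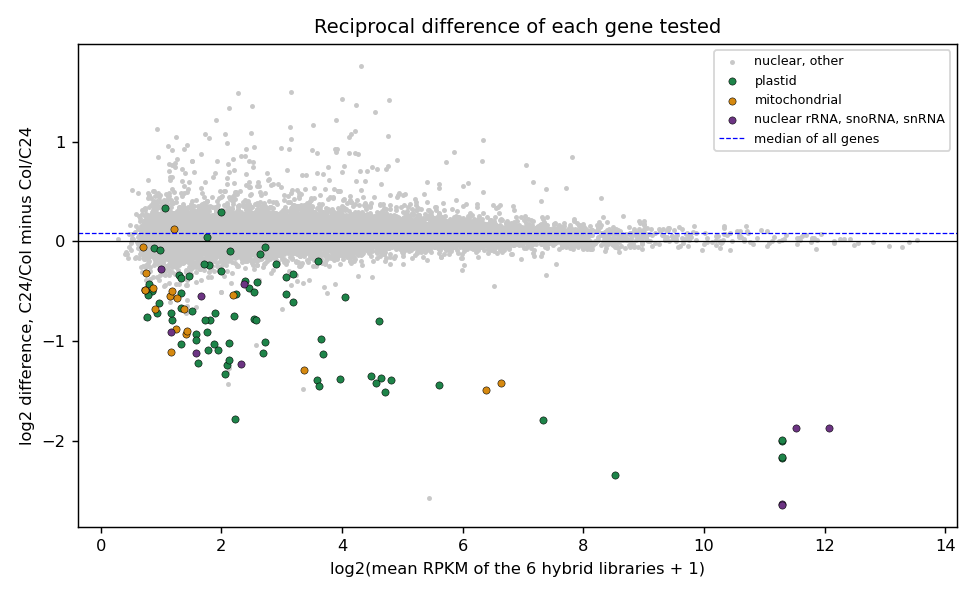
Each point is 1 of the 17927 genes tested, with the log2 of the mean RPKM of the 6 hybrid libraries plus 1 on the horizontal axis and the log2 difference, C24/Col minus Col/C24, on the vertical axis. Grey nuclear genes lie in a narrow band around the dashed median of 0.08, while most plastid (green), mitochondrial (orange) and nuclear ribosomal or small RNA genes (purple) lie below 0.

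Transcripts of the ribosomal RNA genes and of the organelles made up a larger share of the Col/C24 libraries. The 4 nuclear ribosomal RNA genes took 2.47%, 1.22% and 4.49% of the summed RPKM in Col/C24 replicates 1, 2 and 3, and 0.316%, 0.441% and 1.18% in the C24/Col replicates. The lowest Col/C24 library lay just above the highest C24/Col library, so the groups did not overlap (mean 2.72% ± 1.65 against 0.647% ± 0.468, SD, n = 3, 4.21-fold, two-sided exact permutation p = 0.1). That p is the smallest that 3 against 3 libraries can give. Plastid genes took 2.38%, 0.768% and 4.31% in Col/C24 and 0.310%, 0.432% and 0.887% in C24/Col. Here Col/C24 replicate 2 lay below C24/Col replicate 3, and the groups overlapped (4.58-fold, exact permutation p = 0.2). Of 133 plastid identifiers the 4 highest held most of this share, on average 2.28% in Col/C24 and 0.480% in C24/Col. The other 129 held 0.207% and 0.0631% (3.29-fold, exact permutation p = 0.2), with a ratio of 1.36 in pair 2. Mitochondrial genes took 0.0430%, 0.0186% and 0.0763% in Col/C24 and 0.0111%, 0.0156% and 0.0205% in C24/Col (2.92-fold, exact permutation p = 0.2), again with only Col/C24 replicate 2 inside the other group's range.

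The ratio for ribosomal RNA was 7.19 without C24/Col replicate 3, and that for plastid genes 2.90 without Col/C24 replicate 3. All 3 shares were larger in Col/C24 in each of the 3 same-numbered pairs. For ribosomal RNA the ratio within pairs was 7.81, 2.76 and 3.79, for plastid genes 7.68, 1.78 and 4.86, and for mitochondrial genes 3.86, 1.19 and 3.72. Between the parents every Col library lay above every C24 library in all 3 shares, and the Col libraries varied. Ribosomal RNA took 2.43%, 2.69% and 0.576% in the Col libraries and 0.430%, 0.231% and 0.441% in the C24 libraries. Plastid genes took 1.95%, 2.48% and 0.482% in Col and 0.418%, 0.272% and 0.387% in C24. Mitochondrial genes took 0.0438%, 0.0514% and 0.0170% in Col and 0.0124%, 0.00905% and 0.0128% in C24. Because the plastid and ribosomal shares moved together over libraries, RNA selection and transcript abundance cannot be told apart here. In bulk shoots, fewer cells of a type and less RNA per cell cannot be told apart either.

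**Figure D2:**
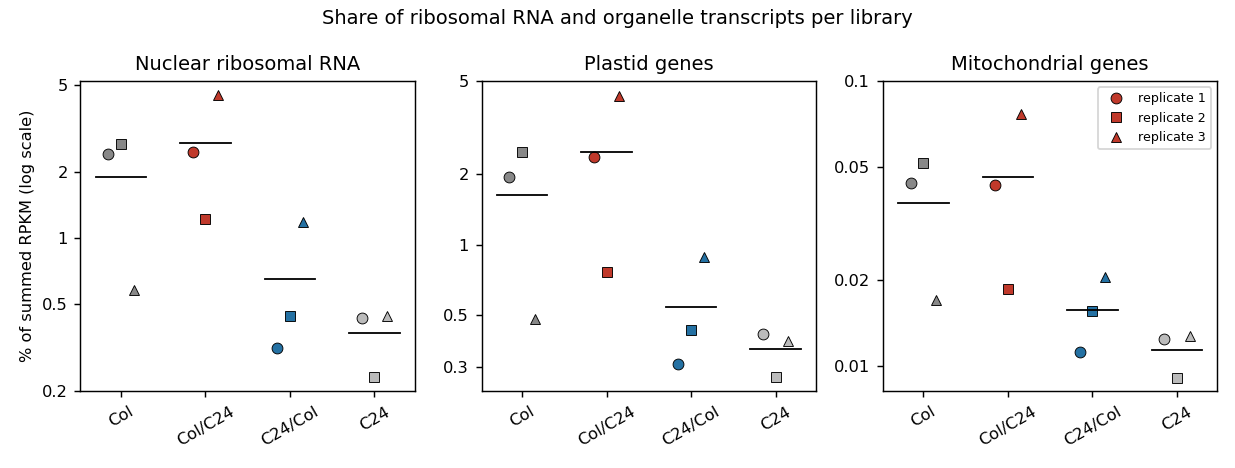
The vertical axes give the percent of summed RPKM on a log scale for nuclear ribosomal RNA, plastid and mitochondrial genes, with 1 symbol per library (shape for the replicate number) and a line at the group mean. Col/C24 replicates 1 and 3 hold the highest hybrid shares in all 3 panels, and Col/C24 replicate 2 lies near C24/Col replicate 3.

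All 4 genes of the ribosomal RNA share had lower fitted values in C24/Col (-2.64 to -1.87), and they did not vary alike over the libraries. AT2G01010, annotated as ribosomal RNA, stood at 4512, 1591 and 8059 RPKM in Col/C24 and at 613, 1084 and 1790 in C24/Col. It was lower in C24/Col in every same-numbered pair, with overlapping groups (log2 difference -1.87, SE 0.65, limma adjusted p = 0.358). AT2G01020 stood at 3432, 2567 and 6274 RPKM in Col/C24 and at 385, 281 and 2131 in C24/Col, without overlap (-2.63, SE 0.74, adjusted p = 0.358). The 2 genes differed within C24/Col, where AT2G01010 was lower in replicate 1 than in replicate 2 and AT2G01020 was higher. With the ribosomal RNA covariate the differences were -0.10 and -1.12. That covariate is the summed share of the same 4 genes, so it takes up their own values. The 2 differences are therefore given as a description only. Nuclear ribosomal RNA genes are repeated and nearly identical, so reads may have been split between their annotated copies.

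Among 76 plastid genes tested, 73 were below 0, 45 had an unadjusted p under 0.05 on the lower side and 1 on the higher side, and none passed. Over all genes 0.876% were at such a p on the lower side. The plastid median difference was -0.77, against 0.08 over all genes, and in pairs 1, 2 and 3 it was -0.98, -0.12 and -1.20. Of them 18 were lower without overlap, against 0.703% of all genes. The identifiers are used without gene names or roles, since the reference table holds none for them. The most abundant besides 2 pairs of near-identical values was ATCG00020, at 615, 181 and 1058 RPKM in Col/C24 and 51.6, 72.8 and 233 in C24/Col. Only C24/Col replicate 3 reached into the Col/C24 range (log2 difference -2.35, SE 0.79, adjusted p = 0.358). ATCG01310, with the smallest p of the plastid genes, stood at 7.66, 8.20 and 10.98 RPKM in Col/C24 and 5.97, 6.13 and 5.46 in C24/Col. Its groups did not overlap, and the difference was smaller (-0.52, SE 0.13, adjusted p = 0.358), at -0.32 without Col/C24 replicate 3.

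Mitochondrial genes lay on the same side, with 18 of 19 below 0, a median of -0.57 and 12 lower at an unadjusted p under 0.05 (0.876% of all genes), none of which passed. ATMG00030 stood at 12.7, 6.77 and 21.8 RPKM in Col/C24 and 4.34, 2.71 and 7.44 in C24/Col, a difference of -1.29 (SE 0.36, adjusted p = 0.358). C24/Col replicate 3 lay just above Col/C24 replicate 2, and otherwise the hybrids were separate. ATMG00030 passed when the 6 hybrid libraries were fitted alone (adjusted p = 0.0350). The direction of cross held 51.0% of the variance of the plastid genes over the 6 hybrid libraries and 50.3% of that of the mitochondrial genes, against the 12.7% over all genes.

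The ribosomal RNA share did not overlap between the hybrids, so a fit with it as a covariate also takes up the direction of the cross, and these cannot be told apart. With that share as a covariate the plastid median was 0.09 and the mitochondrial median 0.03, both with the opposite sign. Without Col/C24 replicate 3 alone the medians were -0.41 and -0.31, and the mitochondrial median was -0.87 without Col/C24 replicate 2. Without the 2 Col/C24 libraries above 2% ribosomal RNA the medians were -0.08 and -0.12. Those 2 libraries also held the highest plastid shares of the hybrids, so their removal had to make the difference smaller and is given as a description. Col/C24 is then 1 library, assumed to vary like the other groups. The part of RNA selection in the organelle difference was not tested.

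Nuclear genes for the expression of the organelle genomes differed little. Of 20 tested, which include sigma factors of the plastid RNA polymerase and RNA-binding proteins of the pentatricopeptide repeat family, 19 lay above 0, against 81.3% of all genes, and none passed. Their median was 0.07, below that of all genes, and 7 lay above 0 with median-of-ratios scaling, against 51.5% of all genes. SIGF, a sigma factor, stood at 49.4, 58.6 and 49.7 RPKM in Col/C24 and 54.6, 69.3 and 59.9 in C24/Col. It was higher in C24/Col in all 3 pairs with overlapping groups (0.22, SE 0.05, adjusted p = 0.358). GUN1, which acts in signalling from plastid to nucleus, averaged 78.3 ± 11.2 RPKM over Col/C24 and 81.2 ± 10.2 over C24/Col libraries (SD, n = 3). Of 7 tested genes that answer to mitochondrial stress, all lay above 0 (6 with median-of-ratios scaling) with a median of 0.22, and none passed. The alternative oxidase AOX1A, a bypass of the respiratory chain, stood at 25.8, 17.2 and 14.3 RPKM in Col/C24 and 27.4, 23.1 and 16.1 in C24/Col (0.22, SE 0.09, adjusted p = 0.359).

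Photosynthesis genes of the nucleus had a median difference of 0.007 in the values as deposited and of -0.08 with median-of-ratios scaling. Over all genes these medians were 0.08 and 0.003. Of 44 tested, 26 lay above 0 (2 with median-of-ratios scaling), beside 81.3% of all genes (51.5%). They ranged from -0.09 to 0.12, and each had a 95% interval within 2-fold, as did 98.6% of all genes. RBCS1A stood at 10299.5, 14207 and 10764 RPKM in Col/C24 and 11738, 12758 and 10952 in C24/Col. The groups overlapped throughout (0.02, 95% interval -0.21 to 0.25, adjusted p = 0.934). LHB1B2, a chlorophyll-binding protein of the light-harvesting antenna, stood at 10780 ± 1176 and 10691 ± 944 RPKM (SD, n = 3). Both belong to gene families with near-identical members, among which reads may be split.

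The U3 small nucleolar RNAs, which guide early cleavage of the ribosomal RNA precursor, gave the smallest adjusted p. U3B stood at 2.50, 2.59 and 4.22 RPKM in Col/C24 and at 0.85, 0.59 and 1.17 in C24/Col. Every Col/C24 library lay above every C24/Col library, and the fitted difference was -1.12 (SE 0.14, adjusted p = 0.0916). U3D stood at 4.09, 5.43 and 8.68 RPKM in Col/C24 and at 2.1, 1.86 and 1.76 in C24/Col, again apart (-1.23, SE 0.22, adjusted p = 0.335). The 2 sequences are related, so reads may be shared between them. The parents were ordered likewise for U3B, at 3.10 ± 0.233 RPKM in Col and 0.703 ± 0.241 in C24 (SD, n = 3). Only 2 of 71 small nucleolar RNAs were tested. With the ribosomal RNA covariate the differences were -0.85 for U3B and -0.75 for U3D, and without the 2 Col/C24 libraries above 2% ribosomal RNA -1.05 and -1.10. Of 13 small nuclear RNAs, spliceosome components or their relatives, 4 were tested. All 4 lay below 0, with a median of -0.49, while 81.3% of all genes lay above 0. Without overlap 1 of them was lower, against 0.703% of all genes. With the ribosomal RNA covariate their median was -0.14.

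An RNA without a symbol in the reference table lay within the range of the ribosomal RNA genes, and was chosen after its values were seen. AT1G15405, annotated as a non-coding RNA, stood at 78.8, 28.9 and 113 RPKM in Col/C24 and 6.30, 6.89 and 21.5 in C24/Col. The groups did not overlap (-2.57, SE 0.69, adjusted p = 0.358).

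The genes named by the rule as higher in C24/Col without overlap had differences of 0.46 to 1.09, and none passed. Overlap was judged on the values as deposited, where 9.69% of all genes were higher without overlap, against 2.38% with median-of-ratios scaling. With that scaling CAF1a, BGLU11, WRKY26 and BAT5 overlapped between the hybrids, and the differences of the named genes were 0.37 to 1.02. CBF2, a transcription factor that switches on cold-response genes, stood at 4.01, 2.62 and 1.39 RPKM in Col/C24 and 8.02, 7.27 and 4.63 in C24/Col. All C24/Col libraries lay above all Col/C24 libraries (1.09, SE 0.20, adjusted p = 0.335). CAF1a, a deadenylase that shortens messenger RNA tails, stood at 20.6, 18.4 and 9.97 RPKM in Col/C24 and 21.3, 50.5 and 35.3 in C24/Col. Its C24/Col replicate 1 lay only just above Col/C24 replicate 1 (1.06, SE 0.43, adjusted p = 0.358). The difference was 1.71 without C24/Col replicate 1 and 0.62 without C24/Col replicate 2. MKK9, a kinase of mitogen-activated cascades, stood at 11.4, 8.30 and 8.35 RPKM in Col/C24 and 12.7, 19.9 and 23.1 in C24/Col, with the same near contact in replicate 1 (0.89, SE 0.24, adjusted p = 0.358). MKK9 passed when C24/Col replicate 1 was left out (1.31, adjusted p = 0.0280).

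FER1, a ferritin that stores iron in plastids, was the most abundant of this set. It stood at 152, 132 and 194 RPKM in Col/C24 and at 241, 295 and 325 in C24/Col, a 1.80-fold ratio of the means without overlap (0.85, SE 0.21, adjusted p = 0.358). The parental means were 110 ± 38.8 RPKM in Col and 260 ± 82.6 in C24 (SD, n = 3). ADH1, the alcohol dehydrogenase of low-oxygen metabolism, stood at 3.42, 3.14 and 3.68 RPKM in Col/C24 and 4.46, 6.70 and 5.40 in C24/Col (0.55, SE 0.11, adjusted p = 0.358). The lowest C24/Col library stood above the highest Col/C24 library. BAT5, a transporter in the synthesis of methionine-derived glucosinolates, stood at 7.71, 11.8 and 9.01 RPKM in Col/C24 and 11.9, 16.2 and 12.3 in C24/Col (0.47, SE 0.12, adjusted p = 0.358). DIN11, a gene induced by darkness, the transcription factor WRKY26, the glucosidase family member BGLU11 and ATL8, a RING-finger protein, completed the 10, with differences of 0.80, 0.52, 0.67 and 0.46. That of DIN11 was 0.46 without C24/Col replicate 2.

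Among genes with a symbol, a mean of at least 5 RPKM in Col/C24, the same order in all 3 pairs and no overlap, the 10 lowest differences were, U3D aside, -0.34 to -0.13. DGAT3, an enzyme of triacylglycerol synthesis, stood at 181, 211 and 162 RPKM in Col/C24 and at 154, 150 and 131 in C24/Col. The groups were apart (-0.34, SE 0.13, adjusted p = 0.358, and -0.19 without Col/C24 replicate 2), and the parental means were 267.5 ± 47.6 in Col and 120 ± 7.13 in C24. NGA1, a transcription factor of leaf and fruit shape, stood at 4.90, 5.43 and 6.25 RPKM in Col/C24 and 4.87, 4.13 and 4.61 in C24/Col, so that the groups nearly touched (-0.23, SE 0.15, adjusted p = 0.470). TOM20-4, a receptor for proteins imported into mitochondria, stood at 17.5, 15.8 and 15.5 RPKM in Col/C24 and 13.9, 13.8 and 15.01 in C24/Col (-0.18, SE 0.09, adjusted p = 0.384). BNS, BLOS1, CB5-B, MUB2, P4H2 and NF-YB10 had differences of -0.23 to -0.13, none with an adjusted p below that of DGAT3.

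**Figure D3:**
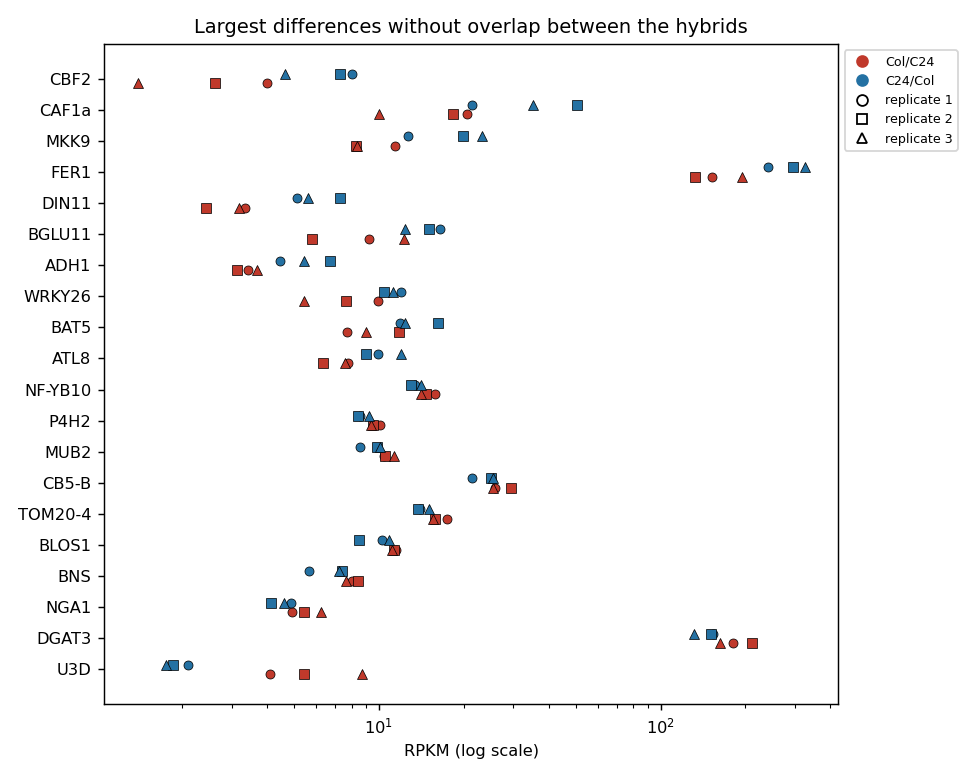
RPKM on a log axis for the 10 highest and 10 lowest differences among named nuclear genes whose hybrids did not overlap and whose higher hybrid averaged at least 5 RPKM, with red for Col/C24, blue for C24/Col and shapes for the replicate number. The nearest libraries of the groups are 2.1 and 4.09 RPKM for U3D and 194 and 241 for FER1, and lie close together for CAF1a (20.6 and 21.3) and NGA1 (4.87 and 4.90).

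The other genes with the smallest p overlapped or were low. PPCK1, a kinase that activates phosphoenolpyruvate carboxylase, stood at 10.9, 7.09 and 4.35 RPKM in Col/C24 and 14.0, 11.1 and 6.59 in C24/Col. Each C24/Col library lay above its same-numbered partner although the groups overlapped (0.48, SE 0.08, adjusted p = 0.335). ADT5, an enzyme at the end of phenylalanine synthesis, stood at 11.3, 7.90 and 6.89 RPKM in Col/C24 and 14.3, 11.5 and 9.66 in C24/Col, with the same order in each pair (0.41, SE 0.07, adjusted p = 0.335). LEA4-5, a protective protein of drying tissue, stood at 0.38, 0.98 and 0.33 RPKM in Col/C24 and 1.14, 2.41 and 2.37 in C24/Col, without overlap (0.92, SE 0.16, adjusted p = 0.335).

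The jasmonate, touch, salicylic acid, and cold and drought lists had medians above that of all genes, and no member passed. Their counts stand beside 81.3% of all genes above 0 (51.5% with median-of-ratios scaling) and 12.4% higher at an unadjusted p under 0.05. Of 22 tested jasmonate genes, which make or respond to this wound hormone, all lay above 0 (20 with median-of-ratios scaling), with a median of 0.22 and 10 at an unadjusted p under 0.05. MYC2, the central transcription factor of the jasmonate response, stood at 26.2, 14.2 and 7.92 RPKM in Col/C24 and 33.4, 33.4 and 13.8 in C24/Col. It was higher in C24/Col in each pair but the groups overlapped (0.75, SE 0.17, adjusted p = 0.358). LOX2, a lipoxygenase of jasmonate synthesis, stood at 125 ± 39.9 and 131 ± 39.7 RPKM (SD, n = 3).

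Rapid-response genes varied with the replicate number. Of 9 tested touch and rapid stress genes all lay above 0 (6 with median-of-ratios scaling), with a median of 0.44, and in pairs 1, 2 and 3 the median was 0.03, 1.01 and 0.28. STZ, a zinc-finger repressor of stress responses, stood at 30.4, 11.2 and 5.86 RPKM in Col/C24 and 37.3, 47.6 and 25.7 in C24/Col. Replicate 1 of Col/C24 was the library inside the other group's range (1.41, SE 0.39, adjusted p = 0.358). The difference was 0.89 without C24/Col replicate 2. TCH3, a calmodulin-like touch gene, stood at 1224, 227 and 199 RPKM in Col/C24 and 1109, 295 and 199 in C24/Col, so that it was high in both libraries numbered 1 and differed little between hybrids (0.08, SE 0.14, adjusted p = 0.794).

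Of salicylic acid defence genes 14 of 15 tested lay above 0 (12 with median-of-ratios scaling), beside 81.3% of all genes (51.5%), with a median of 0.21. BGL2 (PR2), a glucanase of the pathogen response, stood at 0.78, 2.39 and 0.64 RPKM in Col/C24 and 8.70, 9.21 and 1.22 in C24/Col. C24/Col replicates 1 and 2 were high and replicate 3 lay within the Col/C24 range (1.49, SE 0.40, adjusted p = 0.358). PR5, another pathogenesis-related gene, stood at 1.55, 1.90 and 1.28 RPKM in Col/C24 and 8.39, 5.26 and 1.23 in C24/Col, with the same library low (0.99, SE 0.32, adjusted p = 0.358). Its difference was 0.55 without C24/Col replicate 1 and 1.52 without C24/Col replicate 3. Of 17 cold and drought genes all lay above 0 (14 with median-of-ratios scaling), with a median of 0.20. COR15A, a protein that protects plastid membranes in the cold, differed little at 184 ± 36.8 and 194 ± 32.4 RPKM (SD, n = 3).

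Glucosinolate genes make and break down sulphur-containing defence compounds of the cabbage family. All 26 tested lay above 0 (24 with median-of-ratios scaling), beside 81.3% of all genes (51.5%), with a median of 0.20 and pair medians of 0.18, 0.19 and 0.20. At an unadjusted p under 0.05 there were 11, beside 12.4% of all genes. CYP79F1, an enzyme of the methionine-derived branch, stood at 11.6, 17.39 and 12.4 RPKM in Col/C24 and 16.0, 23.2 and 18.5 in C24/Col. Each pair had the same order and the groups overlapped (0.46, SE 0.12, adjusted p = 0.358). Transcripts of AT1G54040 (ESP), whose product directs glucosinolate breakdown, stood at 1263, 1443 and 1215 RPKM in Col/C24 and 1329, 1401 and 1347 in C24/Col. The ratio of the hybrid means was 1.04 (log2 difference 0.06, 95% interval -0.09 to 0.21, adjusted p = 0.676), while the parental means were 12.7 ± 1.08 in Col and 2758 ± 163 in C24.

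Auxin and growth genes gave 20 of 22 above 0 (19 with median-of-ratios scaling), beside 81.3% of all genes as deposited (51.5% when scaled), with a median of 0.15. HB-2, a homeodomain factor of the shade response, stood at 26.1, 27.7 and 25.4 RPKM in Col/C24 and 26.1, 35.4 and 42.0 in C24/Col. The libraries numbered 1 were nearly equal and the others higher in C24/Col (0.35, SE 0.11, adjusted p = 0.358, and 0.22 without C24/Col replicate 3). PIF4, a factor that promotes elongation, stood at 147 ± 14.1 and 162 ± 20.7 RPKM (SD, n = 3). Of 7 dark and senescence genes all lay above 0, also with median-of-ratios scaling, with a median of 0.21, and NYE1, which takes part in chlorophyll breakdown, was higher without overlap at 7.11 ± 0.585 against 6.003 ± 0.170 RPKM (0.21, SE 0.07, adjusted p = 0.358).

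Cell division and heat shock genes had medians below 0, against 0.08 over all genes. No member was at an unadjusted p under 0.05, beside 13.3% of all genes. Their counts above 0 stand beside 81.3% of all genes (51.5% with median-of-ratios scaling). Of 27 cell division genes 8 lay above 0 (3 with median-of-ratios scaling), with a median of -0.04 and pair medians of -0.06, -0.10 and 0.0. SYP111 (KNOLLE), a syntaxin of the forming cell plate, stood at 16.7, 21.7 and 15.74 RPKM in Col/C24 and 17.2, 14.1 and 14.6 in C24/Col. Replicate 2 alone was far apart (-0.22, SE 0.12, adjusted p = 0.427). Of 10 heat shock genes 2 lay above 0 (0 with median-of-ratios scaling), with a median of -0.09, and the pair medians of -0.56, 0.30 and -0.16 did not share a sign. The chaperone HSP70 stood at 121, 8.48 and 15.3 RPKM in Col/C24 and 71.5, 15.2 and 11.95 in C24/Col, high in both libraries numbered 1 (-0.10, SE 0.22, adjusted p = 0.833).

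**Figure D4:**
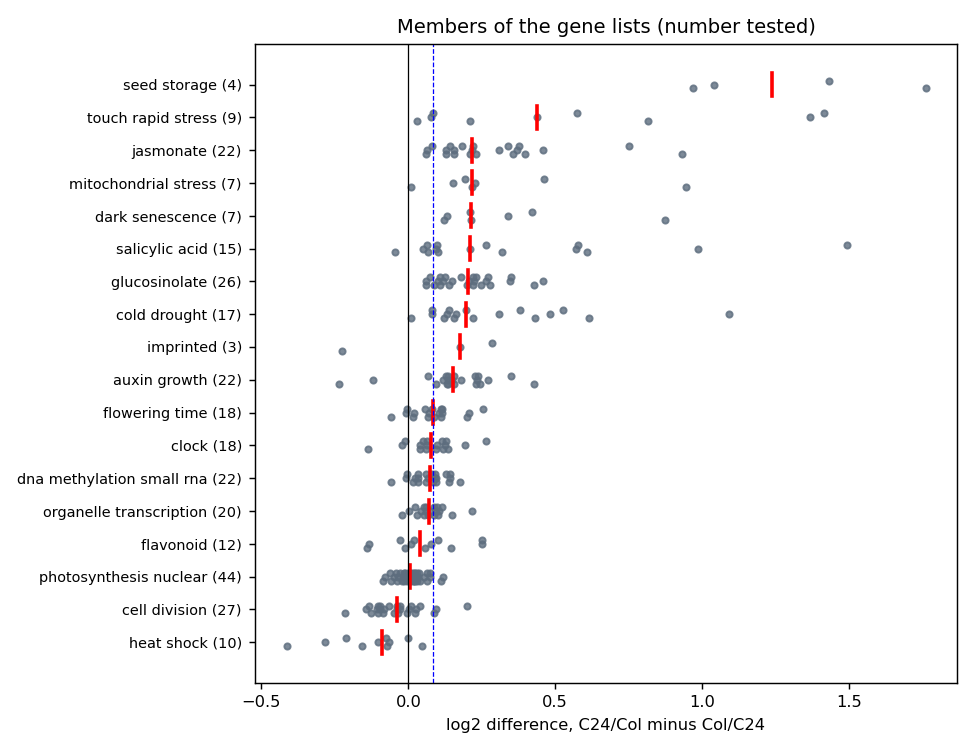
Log2 difference, C24/Col minus Col/C24, of each tested member (points) of the gene lists, with a red line at each list's median, the number tested in brackets and a dashed line at the median of all genes. The medians of the jasmonate, touch, cold and glucosinolate lists lie to the right of the dashed line, those of the heat shock, cell division and photosynthesis lists to the left, and no member passed the test.

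Genes with a place in parent-of-origin expression gave little to compare. Of 17 listed genes known to be imprinted in the endosperm 3 were tested in these shoots, and none passed. Fh5, a formin, stood at 3.48, 3.07 and 2.79 RPKM in Col/C24 and 3.6, 4.12 and 3.23 in C24/Col (0.18, SE 0.09, adjusted p = 0.401). PHE1, a MADS-box gene, stood at 3.29, 1.55 and 3.39 RPKM in Col/C24 and 2.96, 2.40 and 5.43 in C24/Col (0.28, SE 0.19, adjusted p = 0.480). MPC stood at 2.21, 3.61 and 1.99 RPKM in Col/C24 and 2.39, 3.80 and 0.70 in C24/Col, with the lowest value in C24/Col replicate 3 (-0.23, SE 0.21, adjusted p = 0.601). All 3 overlapped between hybrids. Of 22 DNA methylation and small RNA genes 19 lay above 0 (12 with median-of-ratios scaling), beside 81.3% of all genes (51.5%), with a range from -0.06 to 0.18. AGO1, which carries microRNAs, stood at 67.3 ± 4.58 and 71.9 ± 3.73 RPKM, and AGO4, which acts in DNA methylation guided by small RNA, at 17.8 ± 1.91 and 18.17 ± 0.552 (SD, n = 3).

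Flowering time and clock genes centred on the median of all genes, at 0.08 for 18 tested in each list. FLC, a repressor of flowering, stood at 85.6, 97.0 and 97.0 RPKM in Col/C24 and 84.4, 96.9 and 102.7 in C24/Col (0.02, 95% interval -0.10 to 0.14, adjusted p = 0.875). The hybrids were as close to each other as their replicates were, although the parents stood at 2.17 ± 0.261 in Col and 94.4 ± 8.91 in C24. GI, a clock protein that promotes flowering, stood at 18.1, 19.9 and 19.3 RPKM in Col/C24 and 22.0, 23.9 and 23.1 in C24/Col. The groups did not overlap (0.25, SE 0.08, adjusted p = 0.358), and with median-of-ratios scaling the difference was 0.17. VRN2, a Polycomb protein, stood at 8.64, 9.20 and 8.74 RPKM in Col/C24 and 9.34, 11.1 and 10.8 in C24/Col, also without overlap (0.21, SE 0.07, adjusted p = 0.358). With median-of-ratios scaling its groups overlapped, and the difference was 0.12. The clock gene PRR7 stood at 89.5 ± 5.65 and 93.4 ± 2.55 RPKM (SD, n = 3).

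Genes that differed between the parents had median reciprocal differences close to the 0.08 of all genes. Among 3628 genes that passed as higher in C24 the median reciprocal difference was 0.10, and among 3862 higher in Col it was 0.07. Where the parental difference was 3 or more, on the log2 scale, the medians were 0.09 for 41 genes higher in C24 and 0.08 for 72 higher in Col. Single genes in these 2 sets differed more, with ranges of -0.10 to 1.41 and of -2.57, that of AT1G15405, to 0.40. Across 17832 nuclear genes the parental and reciprocal differences gave Pearson's r of 0.15 and a slope of 0.034. The value is a description across genes that share the same libraries and are not independent replicates.

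**Figure D5:**
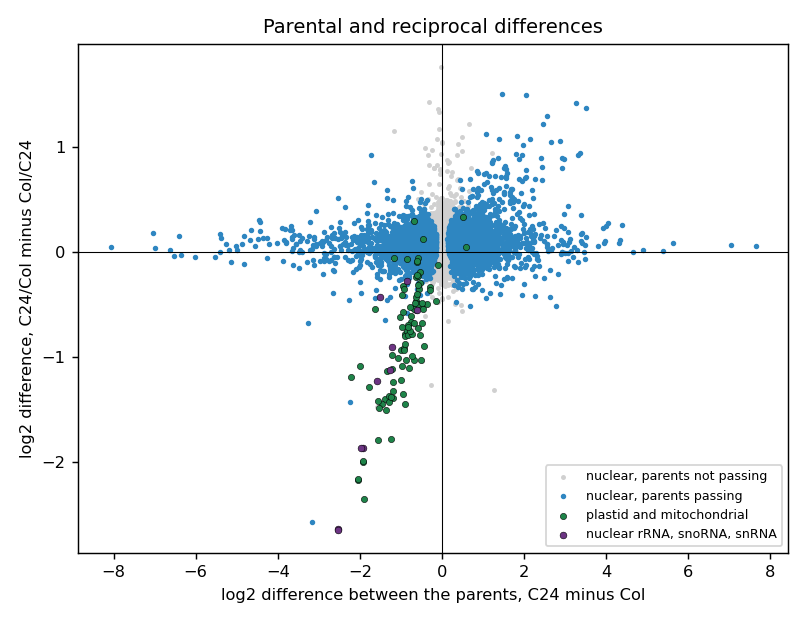
Each point is a gene tested, with the log2 difference between the parents, C24 minus Col, on the horizontal axis and the reciprocal difference, C24/Col minus Col/C24, on the vertical axis. Nuclear genes spread along the horizontal axis out to beyond 7 with reciprocal differences mostly near 0, and the organelle (green) and ribosomal or small RNA genes (purple) run down to the lower left.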

How the data were processed

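RNA sequencing was done on oligo(dT)-selected RNA of seedling shoots. Alignment with TopHat to TAIR10 is stated per the submitters' processing notes, while no source used here gives the counting tool or the annotation. The authors deposited 1 table per library with a gene identifier and an RPKM value, a unit read from the values. Of 33559 identifiers, 567 that occurred more than once were left out, which left 32992. Symbols came from TAIR10.1 (32248 identifiers matched), which holds no plastid or mitochondrial names, so that plastid genes were not grouped by symbol as planned. No coordinates or sequences were used. Depths were estimated from multiples of the value of 1 read, with 56.7% to 72.5% of them whole to within 0.15 of a read.

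All 12 libraries were fitted in limma 3.58.1 (R 4.3.3) on log2(RPKM + 1), with group and replicate number as terms, a mean-variance trend and Benjamini-Hochberg adjustment over 17927 genes at 0.05. The replicate number entered as a block because the comparison was defined with it as pairing. Deviations from the group means correlated at 0.825, 0.680 and 0.681 between same-numbered hybrid libraries and at -0.598 to 0.0176 between the others. Such deviations sum to 0 within a hybrid, so positive values for the former push the latter below 0. The labels state no shared batch or day, so beyond the shared number this pairing rests on the data. Nothing states that replicates were separate plants, so p-values speak only for the spread among these samples, which may be technical. Shares were tested by two-sided exact permutation (scipy 1.17.1). The fit was tested on simulated data that were drawn without a replicate effect, so that test does not cover the use of the block.

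The members and the gene lists were chosen with earlier results of these data known. Named genes are the 10 highest and 10 lowest differences of genes with a symbol, a higher mean of at least 5 RPKM, the same direction in 3 pairs and no overlap, the 4 smallest p, and from each list and organelle the members of highest mean and smallest p, of which a selection is described. Alternatives covered the block, the libraries fitted, the filter, the pseudocount, scaling, a ribosomal RNA covariate and each hybrid library left out. The removal of the 2 Col/C24 libraries above 2% ribosomal RNA and of the 4 libraries numbered 1 was chosen after seeing the data.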

Additional observations from a re-analysis of the deposited data

How the results depend on the processing

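The count of passing genes was 0 in limma with no replicate block, where 745 genes had an unadjusted p under 0.05, against 2377 with the block. It was 1 with the 6 hybrid libraries alone (ATMG00030, lower in C24/Col, -1.29, adjusted p = 0.0350, range over its 18 alternatives 0.0350 to 1.0) and 0 to 1 with 1 hybrid library left out. The 1 was MKK9 without C24/Col replicate 1 (1.31, adjusted p = 0.0280, range 0.0280 to 1.0). The parental count was 4071 with no replicate block, 4365 with median-of-ratios scaling and no replicate block, and 7091 to 7538 with a hybrid library left out. The median over all genes was 0.0035 with median-of-ratios scaling, with and without the block, 0.035 after rescaling to nuclear genes other than ribosomal RNA, 0.042 with the ribosomal RNA covariate, 0.049 without the 2 Col/C24 libraries above 2% ribosomal RNA, and 0.057 to 0.103 with a library left out. The plastid median was 0.0901 with the covariate, -0.083 without those 2 libraries and -1.12 to -0.41 with a library left out. The mitochondrial median was 0.027 with the covariate, -0.084 with no filter, -1.35 with a filter of 5 RPKM, -1.06 with a pseudocount of 0.1 and -0.87 to -0.31 with a library left out. The filter settings also change which mitochondrial genes enter the median. The cause of the shifts was not tested. Intervals within 2-fold numbered 17586 to 17646 with a library left out and 17260 with a pseudocount of 0.1. With no replicate block they numbered 16977, and 16992 with median-of-ratios scaling and no block. The ratio of shares, Col/C24 over C24/Col, was 2.85 to 7.19 for ribosomal RNA, 2.90 to 6.70 for plastid and 1.96 to 3.79 for mitochondrial genes. Of 1943 recomputed values of 109 named genes 92 had another sign, in 25 genes, and 2 crossed the threshold. Depth limits genes below about 0.13 RPKM.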

Other observations

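Seed storage transcripts were high in single libraries and followed neither hybrid. CRU3, a cruciferin of seed protein bodies, stood at 23.4, 0.05 and 0.03 RPKM in Col/C24 and at 12.03, 0 and 77.8 in C24/Col. CRA1, another cruciferin, stood at 27.6, 0.16 and 0.13 RPKM in Col/C24 and at 12.2, 0.09 and 50.4 in C24/Col. The 3 libraries that held them were Col/C24 replicate 1 and C24/Col replicates 1 and 3, and OLEO1, an oil-body protein, was highest in the same libraries at 2.79, 2.56 and 9.22 RPKM. All 4 tested members of the list had differences above 0 (0.97 to 1.76), while the difference of CRU3 was 0.02 and that of CRA1 -0.11 without C24/Col replicate 3. The pair medians were -0.50, -0.06 and 4.39, and no member passed in limma. CRU3 was listed at 0 in the C24 libraries and at 0 to 0.02 RPKM in the Col libraries.

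Flavonoid genes, for pigments of the plant's epidermis, gave 8 of 12 above 0 (4 with median-of-ratios scaling), beside 81.3% of all genes (51.5%), with a median of 0.04. TT4, the chalcone synthase at the start of the pathway, stood at 13.4, 19.3 and 15.2 RPKM in Col/C24 and at 14.5, 16.6 and 11.95 in C24/Col, with overlapping groups (-0.14, SE 0.12, limma adjusted p = 0.557). DFR, a later enzyme towards anthocyanins, stood at 10.9 ± 1.89 and 11.8 ± 2.1 RPKM (SD, n = 3), while the parental means were 11.5 ± 2.68 in Col and 3.59 ± 0.656 in C24.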
